A study of Mus musculus with 9 samples.

Results

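The 10 genes described here mark the alveolar type 2 cell and the surfactant it makes: Sftpa1, Sftpb, Sftpc, Sftpd, Abca3, Lamp3, Lpcat1, Slc34a2, Napsa and Nkx2-1. They were picked by name as known markers of that cell, with earlier results of these data known, and all 10 were found among 25526 names and among the 14540 genes tested. Alveolar type 2 cells line the gas exchange surface together with the flat type 1 cells. They synthesise phospholipid and 4 surfactant proteins, store the lipid with the hydrophobic proteins in lamellar bodies, and secrete it to lower surface tension, while the collectins among the surfactant proteins bind microbes. In injured lung they also act as progenitors of type 1 cells, which is why their genes are followed in models of fibrosis.

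RNA sequencing was run on whole lungs of 9 mice, with 1 library per mouse and 3 mice per group. The nanozyme group had received PepNzymeSOD-CAT, which the series title describes as an inhaled, self-assembled polypeptide nanozyme and whose name refers to superoxide dismutase and catalase activity. The model group had pulmonary fibrosis and the normal group was the healthy comparison. The design text places the nanozyme in a therapeutic setting. The agent that produced the fibrosis, the dose, the time of sampling, and the strain, sex and age of the mice are not given in the sources used here, and neither is whether the model or normal mice received a vehicle. The study asked how the nanozyme acts in pulmonary fibrosis. For these genes that becomes 3 comparisons: model with normal lungs, nanozyme with model lungs, and nanozyme with normal lungs. Values are FPKM, read counts divided by transcript length and by the total of the library, so levels may be compared between genes. Tests used limma on log2(FPKM + 1), so a difference of 1 is a doubling for genes far above the pseudocount, and a call means a Benjamini-Hochberg adjusted p under 0.05 over the 14540 genes tested.

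A pair of libraries was singled out. Nanozyme replicate 2 correlated with the model libraries at a mean r of 0.971 across genes and with the other nanozyme libraries at 0.921. Normal replicate 3 lay between the other 2 normal libraries at 54.4% of 7773 genes and at 10 of 10 of the genes described here, against 17.9% to 44.0% of genes for each other library within its group. Results that rest on either of these libraries are therefore given with and without it. Model replicate 2 was not singled out in this way. Over the same 7773 genes its median absolute log2 distance from the mean of its group's other libraries was 0.258. That was the largest of the 9 libraries, with 0.232 for nanozyme replicate 2. Leaving out nanozyme replicate 2, picked for its likeness to model lungs, favours calls in nanozyme vs model lungs. Over all genes, model vs normal lungs gave 2525 genes higher and 3299 lower, so 43.4% of calls were higher; this share was 54.2% with column sums made equal, 55.3% with median-of-ratios scaling and 32.9% with scaling that left out the 100 most abundant genes. The median gene differed by -0.12 on the log2 scale in model vs normal lungs, and by 0.00 after median-of-ratios scaling. The tissue label held for these markers, since every one of the 10 genes had at least 32.2 FPKM in every library.

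All 10 are protein-coding genes in GENCODE vM21, on mouse build GRCm38. Sftpa1, Sftpd and Sftpc lie on chromosome 14, at chr14:41131782-41136452 on the plus strand, chr14:41172214-41185149 on the minus strand and chr14:70520949-70524081 on the minus strand. Sftpb is at chr6:72304610-72314371 on the plus strand. Slc34a2 (chr5:53038081-53071664, plus strand), Napsa (chr7:44572380-44586862, plus strand) and Lpcat1 (chr13:73467197-73516422, plus strand) lie on other chromosomes, as do Lamp3 (chr16:19653378-19706375, minus strand) and Abca3 (chr17:24351950-24410201, plus strand). Nkx2-1, the homeodomain transcription factor of lung epithelium, is at chr12:56531958-56536908 on the minus strand. FPKM values sum over a whole gene, so they carry no exon, intron or UTR detail.

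NKX2-1 is known to bind surfactant gene promoters at sites with the core letters CTCAAG, and FOXA factors at sites with TGTTTAC or TGTTTGC. The 250 bases upstream of the start site were searched together with the 50 after it, on both strands, in RefSeq promoter windows of GRCm38.p6, which matched 7 of the 10 genes. The NKX2-1 core occurred in 2 of these 7 windows and in 15.9% of all 32851 windows. The 2 upstream stretches that held it are shown because their genes gave different results in model vs normal lungs, where Sftpb fell and Sftpa1 did not pass the test. Both are written on the gene's strand, chr6:72304360-72304609 for Sftpb and chr14:41131538-41131787 for Sftpa1, with the matched letters in capitals.
Sftpb: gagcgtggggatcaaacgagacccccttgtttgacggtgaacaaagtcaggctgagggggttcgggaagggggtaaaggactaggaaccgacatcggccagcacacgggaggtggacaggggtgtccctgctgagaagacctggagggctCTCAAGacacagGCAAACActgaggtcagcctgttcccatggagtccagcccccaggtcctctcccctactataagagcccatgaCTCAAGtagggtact
Sftpa1: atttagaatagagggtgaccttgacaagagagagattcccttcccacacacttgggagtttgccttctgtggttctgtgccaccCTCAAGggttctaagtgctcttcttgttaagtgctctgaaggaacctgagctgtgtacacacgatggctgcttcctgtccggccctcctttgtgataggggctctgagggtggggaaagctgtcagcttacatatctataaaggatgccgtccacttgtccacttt
In the Sftpb stretch the capitals mark CTCAAG at 100 and 15 bases before the start site and, at 88 bases before it, GCAAACA, which reads TGTTTGC on the opposite strand. In the Sftpa1 stretch they mark CTCAAG at 166 bases before the start site. The FOXA core occurred in 2 of the 7 windows, those of Sftpb and Lamp3, and in 8.48% of all windows. The GATA core AGATAA was in 0 of the 7 windows and in 11.2% of all windows. No matches overlapped, and a match of letters is a description of the window only.

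The genes of the hydrophobic surfactant proteins had the lowest ratios of model to normal means among the 10. Sftpc encodes surfactant protein C, a small lipopeptide made by type 2 cells, and it was the most abundant of the 10 genes in every library. Its level was 18319.6, 13411 and 25163 FPKM in nanozyme lungs, 8900 (replicate 1), 6177 and 8474 FPKM in model lungs, and 19846, 25072 and 22612 FPKM in normal lungs. Every model library was below every nanozyme and every normal library, while nanozyme and normal lungs overlapped, with nanozyme replicate 3 the highest of all 9. The means were 18965 ± 5902 FPKM in nanozyme lungs, 7851 ± 1465 FPKM in model lungs and 22510 ± 2614 FPKM in normal lungs (SD, n = 3 each). In model lungs Sftpc fell to 0.349 of the normal mean, a log2 difference of -1.53 ± 0.31 (SE; adjusted p = 0.00589). Nanozyme vs model lungs differed by 1.24 ± 0.31 (adjusted p = 0.181) and nanozyme vs normal lungs by -0.29 ± 0.31 (adjusted p = 0.573), neither past the threshold. In these bulk tissues, fewer type 2 cells and less RNA per type 2 cell cannot be told apart. The model vs normal call was lost under quantile normalization (-0.68, adjusted p = 0.302), which ranks values and therefore gives nearly 1 value to a gene that held the same rank, here the second highest, in 8 of 9 libraries. It was also lost when no gene was filtered (adjusted p = 0.310).

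Sftpb encodes surfactant protein B, which packs lipid into lamellar bodies and whose loss is lethal at birth in mice. It had 2992, 1554 and 2837 FPKM in nanozyme lungs, 1532, 870.4 and 1303 FPKM in model lungs, and 2519, 3348 and 2932 FPKM in normal lungs. Model libraries were again the lowest, but nanozyme replicate 2 exceeded model replicate 1 only narrowly. Sftpb fell to 0.421 of the normal mean in model lungs, by 1.28 ± 0.31 on the log2 scale (SE, n = 3 each; adjusted p = 0.0121), and it stayed past the threshold in all 20 alternatives tried. It differed by 0.97 ± 0.31 in nanozyme vs model lungs (adjusted p = 0.182) and by -0.30 ± 0.31 in nanozyme vs normal lungs (adjusted p = 0.553).

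**Figure D1:**
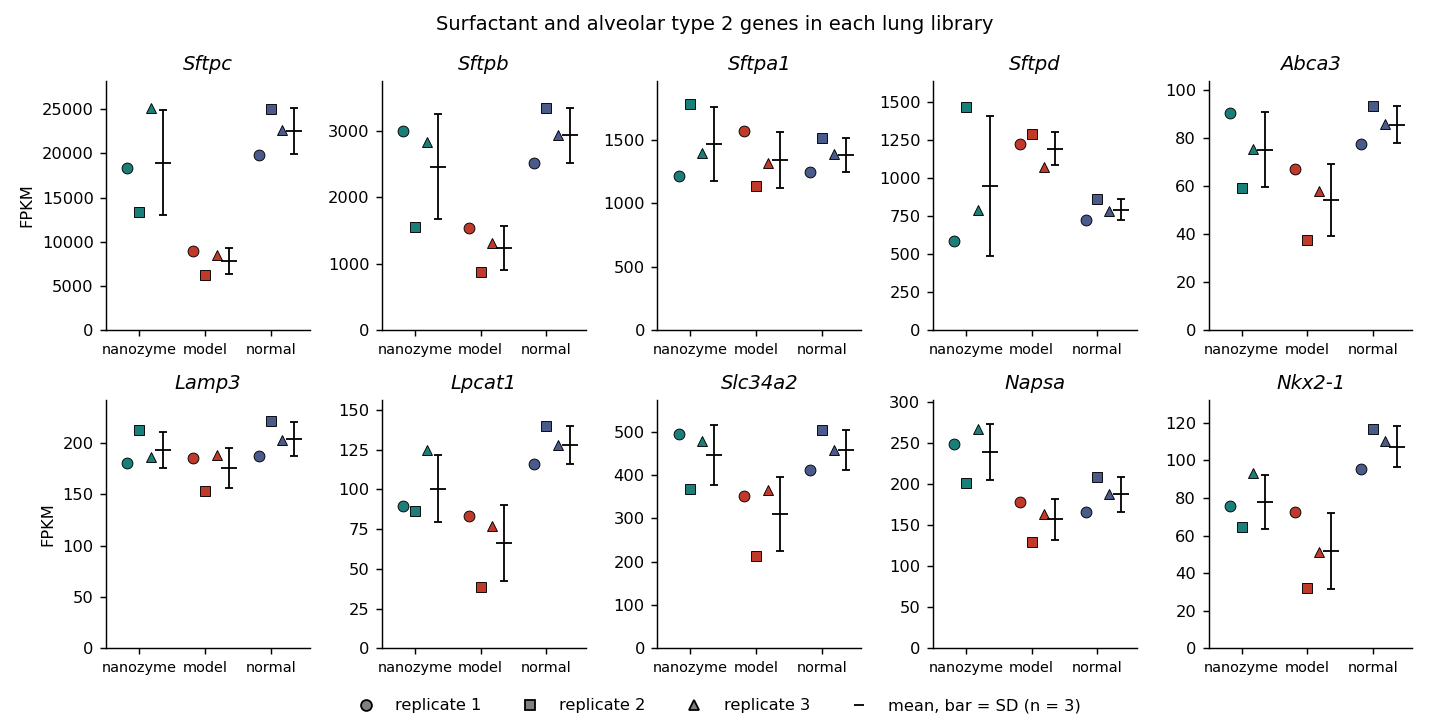
FPKM of each gene (vertical axis, starting at 0) in the nanozyme, model and normal libraries, with 1 point per library, its shape giving the replicate number, and the mean with its SD (n = 3) beside the points. For Sftpc the 3 model libraries lie at 6177 to 8900 FPKM, below the other 6 libraries, while for Sftpd they lie at 1074 to 1289 FPKM, above the 3 normal libraries.

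For neither collectin gene did a difference pass the test with all libraries. Sftpa1 encodes surfactant protein A and Sftpd surfactant protein D, soluble lectins that bind microbial sugars and are also made by airway secretory cells. Sftpa1 had 1218, 1787 and 1398 FPKM in nanozyme lungs, 1572, 1135 and 1316 FPKM in model lungs, and 1244, 1514 and 1388 FPKM in normal lungs. The 3 groups overlapped completely, and no difference passed the test: -0.05 ± 0.19 in model vs normal lungs (adjusted p = 0.849), 0.12 ± 0.19 in nanozyme vs model lungs (adjusted p = 0.722) and 0.07 ± 0.19 in nanozyme vs normal lungs (adjusted p = 0.840). The sign of each of these changed under some scalings or omissions. Sftpd had 587.5, 1470.5 and 792.5 FPKM in nanozyme lungs, 1225, 1289 and 1074 FPKM in model lungs, and 727.7, 865.2 and 784.9 FPKM in normal lungs. All model libraries exceeded all normal ones, and nanozyme lungs were split, with replicate 2 above every model library and replicates 1 and 3 below every model library.

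The Sftpd difference of 0.59 ± 0.30 in model vs normal lungs did not pass the test with all libraries (adjusted p = 0.143). It passed without nanozyme replicate 2, which enters that comparison only through the shared estimate of spread (adjusted p = 0.0161), and with only the 2 groups compared (adjusted p = 0.0158). In nanozyme vs model lungs Sftpd differed by -0.44 ± 0.30 (adjusted p = 0.400), and by -0.80 without nanozyme replicate 2 (adjusted p = 0.0155). Nanozyme and normal lungs differed by 0.16 ± 0.30 (adjusted p = 0.768), and by -0.21 without that library (adjusted p = 0.476). In the fit of all libraries Sftpd was the only one of the 10 genes with a positive difference in model vs normal lungs and the only one with a negative difference in nanozyme vs model lungs; Sftpa1 took those signs as well under some alternatives.

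Abca3, Lpcat1 and Lamp3 belong to the lipid and lamellar body machinery. Abca3 encodes the transporter that loads phospholipid into lamellar bodies, and it had 90.6, 59.2 and 75.7 FPKM in nanozyme lungs, 67.0, 37.5 and 58.0 FPKM in model lungs, and 77.7, 93.2 and 85.9 FPKM in normal lungs. Model libraries lay below all normal libraries and overlapped with nanozyme replicate 2. Abca3 fell by 0.69 ± 0.23 on the log2 scale in model vs normal lungs (SE; adjusted p = 0.0413), close to the threshold: 10 of the 20 alternatives ended the call, among them leaving out normal replicate 3 (adjusted p = 0.103). The difference was 0.48 ± 0.23 in nanozyme vs model lungs (adjusted p = 0.249) and -0.20 ± 0.23 in nanozyme vs normal lungs (adjusted p = 0.596).

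Lpcat1 encodes a lysophosphatidylcholine acyltransferase that remodels lecithin to the saturated form of surfactant. It had 89.7, 86.6 and 124.5 FPKM in nanozyme lungs, 83.0, 38.9 and 76.6 FPKM in model lungs, and 115.8, 139.8 and 127.7 FPKM in normal lungs. All model libraries were below all others, and nanozyme replicate 3 alone lay inside the normal range. Lpcat1 fell to 0.518 of the normal mean in model lungs, by 1.01 ± 0.28 on the log2 scale (SE, n = 3 each; adjusted p = 0.0207), a call lost without normal replicate 3 (adjusted p = 0.0602) and without normal replicate 2 (adjusted p = 0.0644). It differed by 0.65 ± 0.28 in nanozyme vs model lungs (adjusted p = 0.221) and by -0.36 ± 0.28 in nanozyme vs normal lungs (adjusted p = 0.425).

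Lamp3, also called DC-LAMP, encodes a membrane glycoprotein of lamellar bodies that mature dendritic cells also carry. It had 180.2, 213.0 and 186.7 FPKM in nanozyme lungs, 185.1, 153.0 and 188.6 FPKM in model lungs, and 187.4, 220.9 and 203.2 FPKM in normal lungs. The groups overlapped in every pair. Its difference of -0.22 ± 0.13 in model vs normal lungs did not pass (adjusted p = 0.196), nor did 0.14 ± 0.13 in nanozyme vs model lungs (adjusted p = 0.519) or -0.08 ± 0.13 in nanozyme vs normal lungs (adjusted p = 0.730). Among the 20 alternatives, quantile normalization alone gave a call: the model vs normal difference passed (-0.51, adjusted p = 0.0240).

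Slc34a2 and Napsa are further products of type 2 cells. Slc34a2 encodes the sodium-phosphate cotransporter that takes up phosphate from surfactant, and it had 494.5, 367.1 and 479.9 FPKM in nanozyme lungs, 352.9, 212.3 and 365.8 FPKM in model lungs, and 412.2, 504.8 and 457.9 FPKM in normal lungs. Every model library was below every other library, with nanozyme replicate 2 only just above model replicate 3. Its difference of -0.60 ± 0.22 in model vs normal lungs missed the threshold (adjusted p = 0.0637), and among the 20 alternatives it passed only when scaling left out the 100 most abundant genes (adjusted p = 0.0429). The difference was 0.55 ± 0.22 in nanozyme vs model lungs (adjusted p = 0.204) and -0.04 ± 0.22 in nanozyme vs normal lungs (adjusted p = 0.924).

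Napsa encodes napsin A, an aspartic protease that trims the propeptide of surfactant protein B. It had 248.9, 201.1 and 267.5 FPKM in nanozyme lungs, 178.5, 129.3 and 163.4 FPKM in model lungs, and 166.6, 209.0 and 187.9 FPKM in normal lungs. Nanozyme lungs were above all model lungs, and nanozyme replicates 1 and 3 also exceeded every normal library. Napsa was the gene with the highest positive difference in nanozyme vs normal lungs, 0.34 ± 0.16 (adjusted p = 0.200), and it differed by 0.61 ± 0.16 in nanozyme vs model lungs (adjusted p = 0.181) and by -0.26 ± 0.16 in model vs normal lungs (adjusted p = 0.229). None of these passed.

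Nkx2-1 encodes the transcription factor that is needed for lung epithelial identity and that activates surfactant genes. It had 75.7, 64.6 and 93.4 FPKM in nanozyme lungs, 72.6, 32.2 and 51.1 FPKM in model lungs, and 95.4, 116.6 and 110.3 FPKM in normal lungs. Normal libraries lay above all 6 others, and the nanozyme and model groups overlapped between nanozyme replicate 2 and model replicate 1. It fell to 0.484 of the normal mean in model lungs, by 1.10 ± 0.27 on the log2 scale (SE, n = 3 each; adjusted p = 0.0130), and kept that call in all 20 alternatives tried. The difference was 0.63 ± 0.27 in nanozyme vs model lungs (adjusted p = 0.218) and -0.47 ± 0.27 in nanozyme vs normal lungs (adjusted p = 0.279).

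In model vs normal lungs, 5 of the 10 genes were lower, 0 were higher and 5 did not pass the limma test; over all genes tested 22.7% were called lower and 17.4% higher. At an unadjusted p under 0.05, 6 of the 10 differed, as did 50.3% of all genes. The groups did not overlap for 6 genes with model lungs lower and for 1 gene, Sftpd, with model lungs higher, against 34.9% and 23.5% of all genes. The median difference was -0.64 over the 10 genes and -0.12 over all genes tested. Without normal replicate 3 the count of genes called lower was 3, namely Sftpb, Sftpc and Nkx2-1, where 13.2% of all genes were called lower. Model mean levels relative to normal thus ran from 0.349 for Sftpc to 1.51 for Sftpd.

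In nanozyme vs model lungs, 0 of the 10 genes and 0.0% of all 14540 genes passed the limma test, although 6 of the 10 and 3211 of all genes (22.1%) had an unadjusted p under 0.05. Nanozyme lungs lay wholly above model lungs for 5 genes, Sftpb, Sftpc, Lpcat1, Slc34a2 and Napsa, and wholly below for 0, against 10.6% and 5.83% of all genes. An exact two-sided permutation test of 1 gene gave p = 0.1 for those 5, which is the smallest value that 3 against 3 libraries allow. The median difference was 0.58 over the 10 genes and 0.09 over all genes. Model libraries enter both this comparison and that of model with normal lungs, so opposite signs in the 2 comparisons are not independent.

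Without nanozyme replicate 2, limma called 4 of the 10 genes in nanozyme vs model lungs, where 12.5% of all genes were called higher and 9.64% lower. That library stood out for its likeness to model lungs, so leaving it out favours such calls. Only nanozyme replicates 1 and 3 remained in that fit. Sftpc was higher by 1.47 (adjusted p = 0.0120), Sftpb by 1.28 (adjusted p = 0.0122) and Napsa by 0.73 (adjusted p = 0.0179), and Sftpd was lower by the 0.80 given above. The same 4 genes passed when normal replicate 3 was left out as well, with 7.43% of all genes higher and 7.79% lower. Leaving out any other single library gave 0 calls among the 10 genes. Nanozyme replicate 2 was itself above the model range for 8 of the 10 genes and within it for Abca3 and Nkx2-1. Replicates 1 and 3 were each above that range for 7 genes, below it for Sftpd and within it for Sftpa1 and Lamp3.

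In nanozyme vs normal lungs, limma called 0 of the 10 genes and 13.9% of all genes, and 0 of the 10 had an unadjusted p under 0.05, against 30.6% of all genes. The groups did not overlap for 1 gene, Nkx2-1, with nanozyme lungs lower, as in 20.8% of all genes, and for 0 with nanozyme lungs higher, against 22.1%. The median difference was -0.14 over the 10 genes and -0.01 over all genes. A missed threshold does not show equality, and the SE of these differences was 0.13 to 0.31. Nanozyme replicate 3 was within the normal range for 5 genes, below it for 3 and above it for 2. Replicate 1 was within it for 3, below for 6 and above for 1, and replicate 2 was within it for 2, below for 6 and above for 2.

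**Figure D2:**
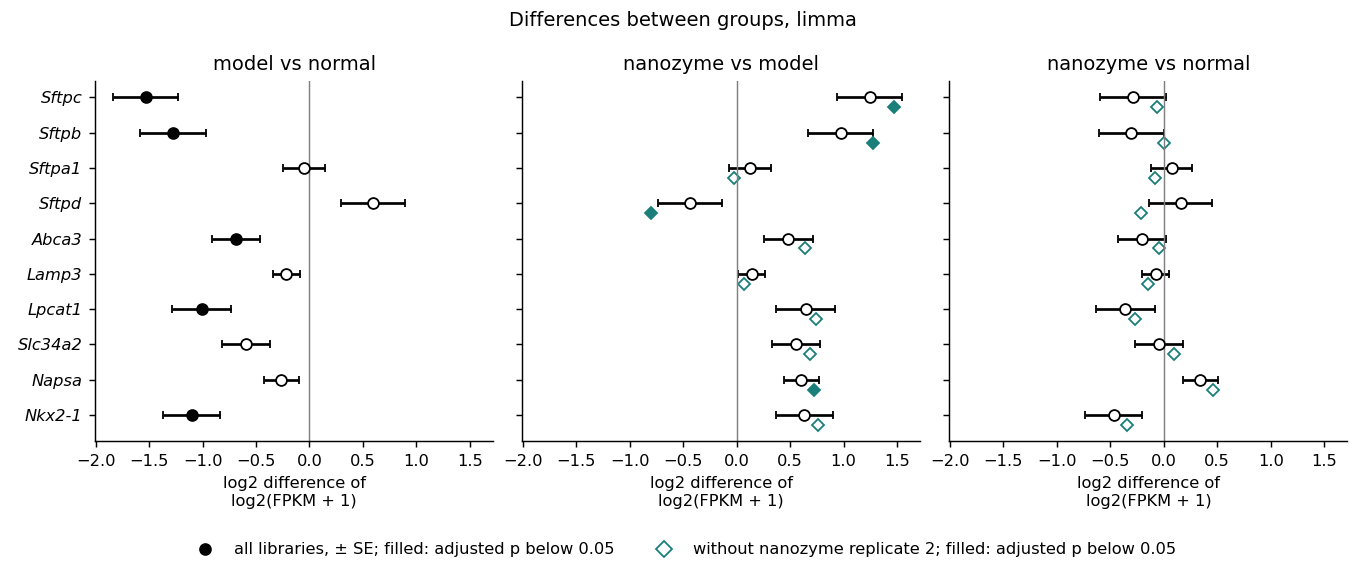
Log2 difference of each gene (horizontal axis), with model vs normal lungs in the left panel, nanozyme vs model lungs in the middle and nanozyme vs normal lungs on the right; circles with bars are limma estimates ± SE from all libraries, diamonds are estimates without nanozyme replicate 2, and filled symbols have an adjusted p under 0.05. Filled circles occur only in model vs normal lungs, for Sftpc, Sftpb, Abca3, Lpcat1 and Nkx2-1. Diamonds are drawn only in the middle and right panels. Filled diamonds occur only in nanozyme vs model lungs, for Sftpc, Sftpb, Sftpd and Napsa.

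The 10 genes made up 3.96% to 6.55% of summed FPKM in nanozyme lungs, 1.94% to 3.08% in model lungs and 5.12% to 6.35% in normal lungs, most of it Sftpc. Sftpc was the second most abundant gene in 8 libraries and the seventh in model replicate 2, where its share was 1.19%. By mean level the order in nanozyme and normal lungs began with Sftpc, Sftpb, Sftpa1, Sftpd and Slc34a2, and in model lungs with Sftpc, Sftpa1, Sftpb, Sftpd and Slc34a2. In normal lungs only Lamp3 with Napsa and Lpcat1 with Nkx2-1, neighbours in that order, had overlapping ranges. In nanozyme lungs Sftpb overlapped with Sftpa1, Sftpa1 with Sftpd, Napsa with Lamp3, Lpcat1 with Nkx2-1 and Nkx2-1 with Abca3. In model lungs Sftpa1 overlapped with Sftpb, Sftpb with Sftpd, Lamp3 with Napsa, Lpcat1 with Abca3 and Abca3 with Nkx2-1.

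Ratios within a library do not depend on how libraries were scaled to each other. The ratio of Sftpa1 to Sftpc in FPKM was 0.0556 to 0.133 in nanozyme lungs, 0.155 to 0.184 in model lungs and 0.0604 to 0.0627 in normal lungs. That of Sftpd to Sftpc was 0.0315 to 0.110 in nanozyme lungs, 0.127 to 0.209 in model lungs and 0.0345 to 0.0367 in normal lungs. All 9 other genes were higher relative to Sftpc in every model library than in every normal library, but so were 82.7% of all other genes, so most genes shared this pattern. Sftpb kept closest to Sftpc, at 0.113 to 0.163 in nanozyme lungs, 0.141 to 0.172 in model lungs and 0.127 to 0.134 in normal lungs. The ratio of Napsa to Sftpc was 0.0106 to 0.0150 in nanozyme lungs, 0.0193 to 0.0209 in model lungs and 0.00831 to 0.00840 in normal lungs, with no overlap between any pair of groups. Between nanozyme and model lungs the ratios of Sftpa1 and Sftpd to Sftpc did not overlap either. For the 2 comparisons with nanozyme lungs, the share of all genes without such overlap is not given here.

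Relative to Epcam, an adhesion molecule of all lung epithelium, Sftpc stood at 353 to 624 in nanozyme lungs, 132 to 277 in model lungs and 269 to 432 in normal lungs. Nanozyme lungs were above model lungs in every library (exact two-sided permutation p = 0.1), while model and normal lungs overlapped (exact p = 0.2). Over 3 other epithelial genes, model lungs lay below normal lungs in every library (exact p = 0.1 each): the mean log2 ratio of Sftpc differed by -0.94 over the cadherin Cdh1, by -1.72 over the keratin Krt8 and by -1.04 over Ager, a type 1 cell gene. Nanozyme lungs lay above model lungs over all 3 as well, by 1.22, 2.01 and 0.64 in the same order (exact p = 0.1 each). Sftpd relative to Epcam was 15.7 to 38.7 in nanozyme lungs, 27.5 to 35.1 in model lungs and 9.84 to 14.9 in normal lungs, with model lungs above normal lungs in every library (exact p = 0.1). The same held for Sftpd over Cdh1 and Ager, and over Krt8 model and normal lungs overlapped (exact p = 0.4). Epcam itself fell in model vs normal lungs, as did Cdh1 (-0.58, adjusted p = 0.00343), so a ratio to either moves with that gene too. Krt8 is also listed below among markers of transitional epithelium. It had 179.2, 343.0 and 171.2 FPKM in model lungs and differed by -0.77 in nanozyme vs model lungs (adjusted p = 0.196), so ratios to it move with Krt8 as well. The share of all genes with the same lack of overlap over Epcam, Cdh1, Krt8 or Ager was not counted.

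**Figure D3:**
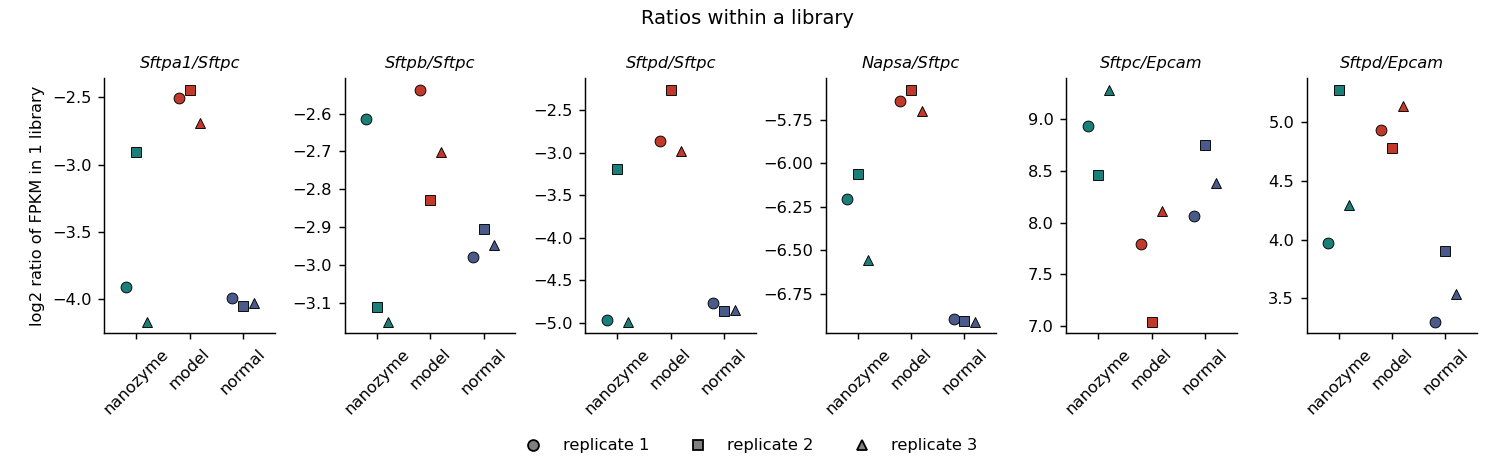
Log2 ratio of FPKM within each library (vertical axis, not starting at 0) for 6 gene pairs, with 1 point per library and its shape giving the replicate number. Sftpa1, Sftpd and Napsa relative to Sftpc are highest in the 3 model libraries, and nanozyme replicate 2 lies nearer to them than nanozyme replicates 1 and 3.

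Within groups the 10 genes moved together to different degrees. In normal lungs replicate 1 was the lowest and replicate 2 the highest for all 10, with replicate 1 at 0.752 (Sftpb) to 0.848 (Lamp3) of replicate 2 and a median of 0.820. Over 9996 genes of mean FPKM at least 5 the same ratio had a median of 0.986, and 0.770 to 1.59 held the middle 90% of genes. Epcam ran the other way, at 73.9, 58.0 and 67.8 FPKM in normal replicates 1, 2 and 3, as did Cdh1 and Krt8. The club cell genes Scgb3a2, at 4564, 1826 and 3065 FPKM, and Cyp2f2 also ran the other way. Scgb1a1, another club cell secretoglobin, kept the order of the 10 genes, at 56368, 71115 and 64126 FPKM. So did the type 1 cell genes Ager, at 961.6, 1243 and 1163 FPKM, Hopx and Cldn18. Markers of other epithelium thus went both ways, and all those named here were chosen after their values were seen. In model lungs replicate 2 was the lowest for 9 genes and the highest for Sftpd, and replicate 1 over replicate 2 ran from 0.950 for Sftpd to 2.25 for Nkx2-1. In nanozyme lungs replicate 2 was the lowest for 7 genes and the highest for Sftpa1, Sftpd and Lamp3, and replicate 1 over replicate 2 ran from 0.400 for Sftpd to 1.93 for Sftpb.

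**Figure D4:**
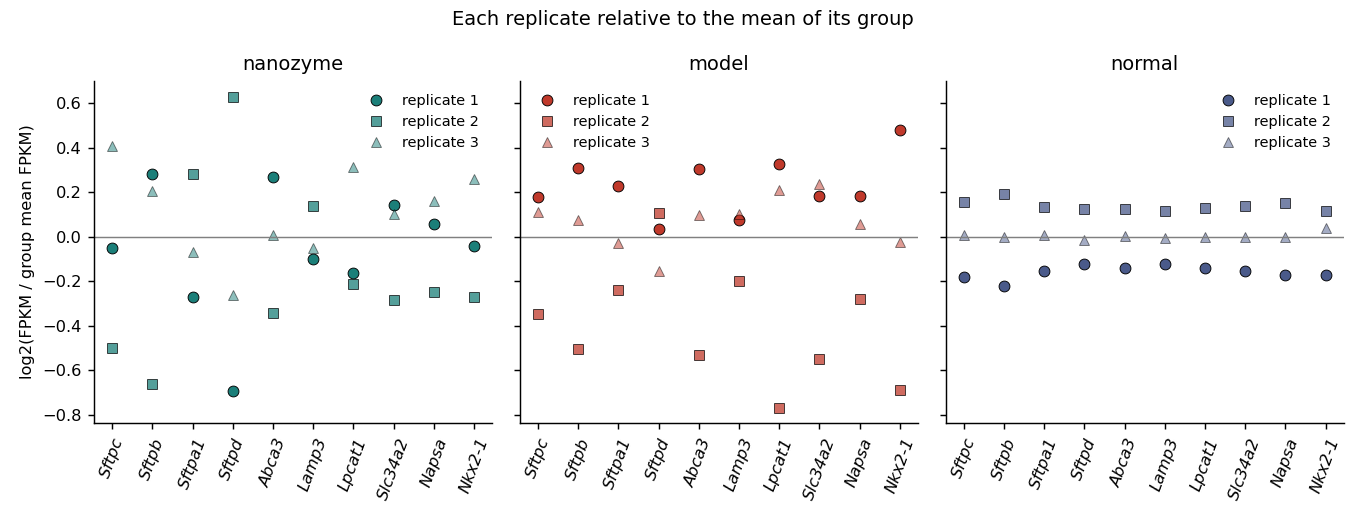
Log2 of each library's FPKM over the mean of its group (vertical axis) for the 10 genes, in nanozyme, model and normal lungs, with 1 symbol per replicate. In normal lungs the 10 genes keep 1 order of replicates, while in model and nanozyme lungs replicate 2 is low for most genes and high for Sftpd.

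Profiles over the 9 libraries were compared by the root mean square difference of log2(FPKM + 1) values after centring each gene, a measure in log2 units that is 0 for equal profiles. The closest pairs were Abca3 with Slc34a2 (0.105), Lpcat1 with Nkx2-1 (0.118) and Sftpa1 with Lamp3 (0.126), followed by Sftpb with Sftpc at 0.200. Sftpd was farthest from Sftpc (1.05) and nearly as far from Sftpb. Among 9575 other genes of mean FPKM at least 5, leaving out predicted and unnamed genes by their symbols, the closest to Sftpc were Sgpp2 (0.143), which encodes a sphingosine-1-phosphate phosphatase, Mettl7a1 (0.148), Tmem204 (0.157), Thbs3 (0.163) and Plekhd1 (0.163). Sgpp2 differed by -1.47 in model vs normal lungs (adjusted p = 0.00254) and by 1.07 in nanozyme vs model lungs (adjusted p = 0.181). The closest to Abca3 were Fads1 (0.0708), a fatty acid desaturase, Tfcp2l1 (0.0771), a transcription factor, Ube2h, Apbb2 and Mical2. These likenesses rest on 9 libraries that share their group structure.

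**Figure D5:**
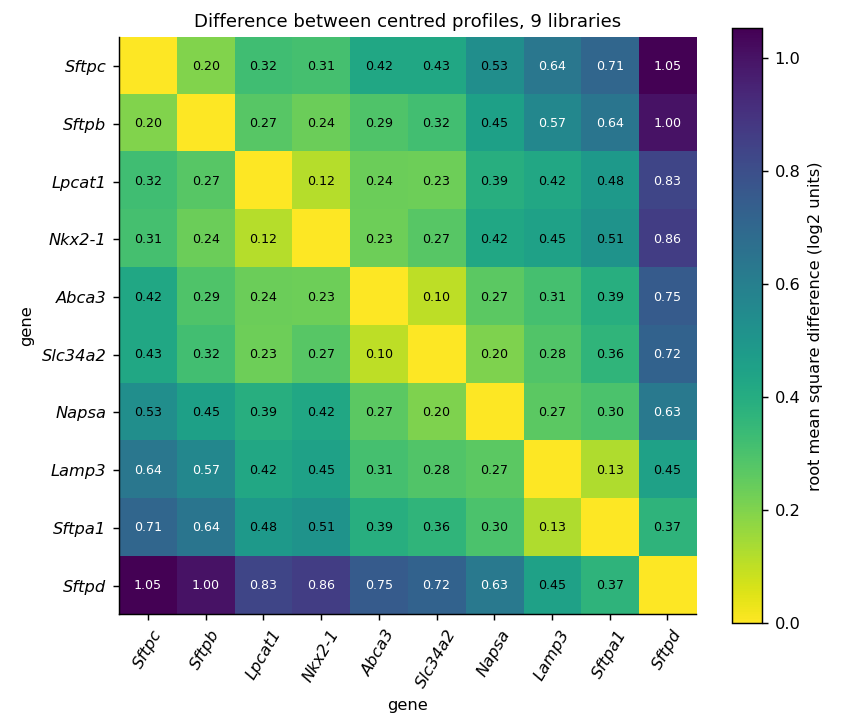
Root mean square difference between the centred log2(FPKM + 1) profiles of each pair of the 10 genes over 9 libraries, in log2 units, as colour and number. Values among Sftpc, Sftpb, Lpcat1, Nkx2-1, Abca3 and Slc34a2 are 0.43 or less, and Sftpd reaches 1.05 from Sftpc.

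Of 18 further transcription factors of the alveolar epithelium, 10 were lower, 1 was higher and 7 did not pass in model vs normal lungs, with a median difference of -0.77 against -0.12 over all genes. The shares over all genes to set beside this and the other list counts for model vs normal lungs are 22.7% lower and 17.4% higher. In nanozyme vs normal lungs 13.9% were called in either direction, 1220 of the 14540 genes higher and 800 lower. Foxa1, a pioneer factor of endodermal genes, was lower by 1.40 ± 0.24 (adjusted p = 0.00322), at 12.9 ± 3.34 FPKM in model lungs and 35.7 ± 9.67 FPKM in normal lungs. Elf5 (-1.19, adjusted p = 0.00296), Klf5 (-1.04, adjusted p = 0.00205) and Grhl2 (-1.01, adjusted p = 0.00382) are epithelial regulators that fell likewise. The 1 that rose was Stat3 (0.53, adjusted p = 0.0244), the transducer of interleukin-6 signals, named after its value was seen. In nanozyme vs normal lungs 3 of the 18 were lower, Foxa1 (-1.31, adjusted p = 0.0103), Klf5 (-0.81, adjusted p = 0.0131) and Grhl2 (-0.79, adjusted p = 0.0238), and that count was 1 without normal replicate 1 or 3 and 5 without model replicate 2. In those 3 fits, in the same order, 168, 148 and 917 of all 14540 genes were called lower. In nanozyme vs model lungs 0 passed. Without nanozyme replicate 2 there were 5 higher and 3 lower, against 12.5% and 9.64% of all genes.

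Of 21 other genes known from type 2 cells, 7 were lower, 4 were higher and 10 did not pass in model vs normal lungs, with a median of -0.58 against -0.12 over all genes; the count that rose was near the share over all genes. S100g, a calcium-binding protein (-1.93 ± 0.18, adjusted p = 0.000337), Ppp1r14c, a phosphatase inhibitor (-1.84 ± 0.20, adjusted p = 0.000583), and Cd36, a fatty acid receptor (-1.28 ± 0.24, adjusted p = 0.00444), were among those that fell. Cbr2, a carbonyl reductase also abundant in club cells, fell by 2.37 ± 0.37 (adjusted p = 0.00230). The 4 that rose were Lyz2 (lysozyme), Cd74 (the class II invariant chain), Chil1 and Fabp5, all of which immune cells also express; the first 3 were named after their values were seen. Without any 1 of the normal replicates, 2 rose. Of all 14540 genes, 1955 were called higher without normal replicate 1, 2032 without normal replicate 2 and 1916 without normal replicate 3. In nanozyme vs normal lungs 1 of 21 passed, Ppp1r14c, at -1.09 ± 0.20 (adjusted p = 0.0111). In nanozyme vs model lungs 0 of 21 passed and the median was 0.60 against 0.09 over all genes. Without nanozyme replicate 2, 8 were higher and 2 lower, against 12.5% and 9.64% of all genes. The count of those lower was near that share.

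Of 22 genes that make surfactant lipid, 3 were lower and 1 was higher in model vs normal lungs, with a median of -0.32. Both counts are below the shares over all genes, 22.7% lower and 17.4% higher. The count of those lower was 1 without model replicate 2, normal replicate 1 or normal replicate 3, and 5 without nanozyme replicate 2. In these fits, in the same order, 2529, 1987, 1920 and 3836 of all 14540 genes were called lower. Chka, choline kinase at the entry of phosphatidylcholine synthesis, was lower by 0.56 ± 0.12 (adjusted p = 0.00746), with 28.2 ± 1.46 FPKM in model lungs and 42.3 ± 3.97 FPKM in normal lungs (SD, n = 3 each). Pcyt1a, the rate-limiting enzyme of that pathway (-0.45, adjusted p = 0.0448), and Scd1, a stearoyl-CoA desaturase (-1.09, adjusted p = 0.0357), were also lower. Fabp5, a fatty acid carrier, was higher (0.78, adjusted p = 0.0459). The calls of Pcyt1a and Fabp5 were each lost in 10 of 20 alternatives and that of Scd1 in 9, among them leaving out any 1 normal replicate; Chka kept its call in all 20. Chka was the only one of the 22 called in nanozyme vs normal lungs (-0.45 ± 0.12, adjusted p = 0.0397), a call that stayed only when the library left out was nanozyme replicate 3 or model replicate 2.

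Of 19 genes for propeptide processing, lamellar body assembly and secretion, 7 were higher, 1 was lower and 11 did not pass in model vs normal lungs, with a median of 0.27. Ctsh, cathepsin H, a protease that processes surfactant proteins B and C, rose by 0.93 ± 0.17 (adjusted p = 0.00406), at 304.5 ± 48.0 FPKM in model lungs and 157.7 ± 4.54 FPKM in normal lungs. Ctsc, cathepsin C of leukocyte granules (1.97, adjusted p = 0.00237), and P2ry2, the ATP receptor that triggers surfactant secretion (0.71, adjusted p = 0.00456), also rose. Rab38, a small GTPase of lamellar body traffic, was the 1 that fell (-0.76, adjusted p = 0.00718). Ctsh (0.84, adjusted p = 0.0155) and P2ry2 (0.50, adjusted p = 0.0420) were the 2 that passed in nanozyme vs normal lungs, with 0 without normal replicate 1 or 3 and 1 to 3 without any other 1 library. Of all 14540 genes, 795 and 748 were called there without normal replicate 1 or 3. Without any other 1 library, 1463 to 2258 were called.

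Of 14 genes of surfactant uptake and clearance, largely a macrophage task, 10 were higher, 2 were lower and 2 did not pass in model vs normal lungs, with a median of 0.97. The chains of the GM-CSF receptor, Csf2rb (3.86 ± 0.55, adjusted p = 0.00167) and Csf2ra (2.18 ± 0.26, adjusted p = 0.000873), the scavenger receptor Msr1 (3.70 ± 0.33, adjusted p = 0.000264) and the lysosomal lipase Lipa (0.91 ± 0.12, adjusted p = 0.00108) had the smallest adjusted p among those that rose; by size, others lay above Lipa, such as Marco at 2.12, named after its value was seen. The 2 that fell were Cd36 and Prdx6, a peroxiredoxin that also acts as a phospholipase of lamellar bodies (-0.82, adjusted p = 0.00581, named after its value was seen). Between nanozyme and normal lungs 7 of 14 were higher and 0 lower, among them Marco (2.95, adjusted p = 0.00179), Lipa (0.88, adjusted p = 0.00276), Msr1 (2.39, adjusted p = 0.00332) and Abcg1, a sterol exporter (0.95, adjusted p = 0.00508). The count was 4 without normal replicate 1 or 3, where 627 and 600 of all 14540 genes were called higher. All 10 leukocyte markers tested were higher in nanozyme vs normal lungs and 9 of 10 in model vs normal lungs, and their summed level was 1208 to 3172 FPKM in nanozyme lungs, 2388 to 3190 FPKM in model lungs and 101.8 to 125.7 FPKM in normal lungs, with no marker at 0 in all libraries.

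Markers of other epithelial cells moved in the same samples as the 10 genes. Of 12 markers shared by lung epithelium, 5 were lower in model vs normal lungs and 4 in nanozyme vs normal lungs. These counts were 3 and 1 without normal replicate 1 and, again, without normal replicate 3, and the first was also 3 without model replicate 3. Of all genes, 1987 and 168 were called lower in these 2 comparisons without normal replicate 1, and 1920 and 148 without normal replicate 3. Without model replicate 3, 2578 were called lower in model vs normal lungs. Epcam was lower by 0.76 ± 0.16 in model vs normal lungs (adjusted p = 0.00699) and by 0.77 ± 0.16 in nanozyme vs normal lungs (adjusted p = 0.0174), with 38.6 ± 1.55 FPKM in nanozyme lungs, 39.2 ± 8.19 FPKM in model lungs and 66.6 ± 8.03 FPKM in normal lungs. The nanozyme mean of Sftpc was 0.842 of its normal mean, a difference that did not pass the test. Of 14 type 1 cell markers, 5 were lower and 1 higher in model vs normal lungs, where 22.7% of all genes were called lower and 17.4% higher. The count of those lower was 3 without model replicate 2, normal replicate 2 or normal replicate 3. In these 3 fits, in the same order, 2529, 2379 and 1920 of all 14540 genes were called lower. Without nanozyme replicate 2 it was 9, beside 3836 of all genes. Hopx was lower by 1.07 ± 0.23 (adjusted p = 0.00832) and Rtkn2 by 1.57 ± 0.35 (adjusted p = 0.00960), and Pdpn, which fibroblasts and macrophages also carry, was higher by 1.26 ± 0.15 (adjusted p = 0.000828).

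Of 11 club cell markers 6 were lower in model vs normal lungs and 3 in nanozyme vs normal lungs. The second count was 1 without nanozyme replicate 3, where 474 of all 14540 genes were called lower. It was also 1 without any 1 of the normal replicates. Without normal replicates 1, 2 and 3 in turn, 168, 730 and 148 of all genes were called lower. The summed level of the club cell markers was 21900 to 32350 FPKM in nanozyme lungs, 7893 to 19630 FPKM in model lungs and 77610 to 82280 FPKM in normal lungs, while that of the 10 genes was 19210 to 31420 FPKM in nanozyme lungs, 10080 to 14170 FPKM in model lungs and 25390 to 32080 FPKM in normal lungs. Scgb1a1, the main club cell secretoglobin, alone took 3.51% to 5.37% of summed FPKM in nanozyme lungs, 1.16% to 3.04% in model lungs and 11.4% to 14.1% in normal lungs. Of 12 markers of transitional epithelium, the cells between type 2 and type 1, 6 were higher and 1 lower in model vs normal lungs. Lcn2, which neutrophils also make, had 257.4, 3527 and 469.6 FPKM in nanozyme lungs, 3887, 5412 and 3969 FPKM in model lungs, and 76.7, 72.0 and 72.8 FPKM in normal lungs. Nanozyme replicate 2 was close to the model libraries for Lcn2, as it was for Sftpd. The part of these cell types in the values of the 10 genes was not tested.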

How the data were processed

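Per the labels' protocols, lungs of 3 mice per group were homogenised in TRIzol, polyadenylated RNA was captured on oligo(dT) beads, and the second cDNA strand was marked. Reads were aligned with HISAT2 to GRCm38, per the submitters' processing notes; the counting tool, its strand setting, the annotation and all versions are not given in the sources used here. The authors deposited 1 table of FPKM values, reads scaled to transcript length and library size, a column for each of 9 libraries. They summed to between 443746 and 519772 FPKM a library. Low values showed no steps of whole reads (the fullest bin held 4.5% of ratios), so sequencing depth and counting error are unknown, and no count test was run. Without a known strand setting, reads of overlapping antisense genes may be included.

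Genes with FPKM of at least 1 in at least 3 of 9 libraries were tested, which left 14540; all 10 genes passed this filter in every group. The test was limma 3.58.1 (R 4.3.3) on log2(FPKM + 1) in a joint fit of the 9 libraries with group means, moderated variances and an intensity trend. Tests were two-sided, with p-values adjusted by Benjamini-Hochberg separately for the 3 comparisons and a threshold of 0.05. The script was tested on simulated data first. p-values measure the spread between these libraries, each 1 mouse per the labels. The 10 genes and all gene lists were chosen with earlier results of these data known. From each list the text names up to 4 called genes with the smallest adjusted p, or up to 2 of the most abundant where none was called, and otherwise says so. Lists overlap: 4 of the other type 2 genes and 3 of the clearance genes are in another list. Exact permutation tests of 1 value, 3 against 3, cannot give a p below 0.1. Alternatives were 19 other settings for pseudocount, filter, scaling, model and omitted libraries, and 1 added after seeing the data, without both nanozyme replicate 2 and normal replicate 3. Same-numbered libraries did not deviate together (r from -0.33 to 0.23), so the numbers were not used as pairs. Gene positions are from GENCODE vM21, which matched 21437 of 25526 names. Figures used Python 3.11.15, pandas 2.3.3 and matplotlib 3.10.9.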

Additional observations from a re-analysis of the deposited data

How the results depend on the processing

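Depth is unknown, so counting error limits these values to an unknown degree, and 3 libraries a group limit each test. In model vs normal lungs 3 of the 10 genes were called with no filter, against 5; leaving out 1 library in turn gave 3 to 6 of the 10 genes and 3836 to 6590 of all genes (3836 without normal replicate 3), and leaving out both nanozyme replicate 2 and normal replicate 3 gave 3. In nanozyme vs model lungs, where none was called, no filter gave 4 genes over the whole table, leaving out 1 library in turn gave 0 to 3216 genes and 0 to 4 of the 10 (3216 and 4 without nanozyme replicate 2), and leaving out both gave 2213 and 4. In nanozyme vs normal lungs the 2020 calls became 1285 with a mean FPKM of at least 5, 748 to 2258 with 1 library left out (748 without normal replicate 3, 795 without normal replicate 1) and 879 with both left out; 60.4% of calls were higher, against 70.4% with equal column sums, 46.8% with quantile normalization and 47.3% with scaling without the 100 most abundant genes. With the replicate number as a block, 5628 genes and 5 of the 10 were called in model vs normal lungs, 0 and 0 in nanozyme vs model lungs, and 1734 and 0 in nanozyme vs normal lungs. The sign turned for values near 0. Sftpa1 in model vs normal lungs was 0.025 with equal column sums, 0.095 with median-of-ratios scaling and -0.173 to 0.062 with 1 library left out, above 0 without model replicate 2 or normal replicate 2. In nanozyme vs model lungs Sftpa1 was -0.026 to 0.25 with 1 library left out, below 0 without nanozyme replicate 2, alone or with normal replicate 3 (-0.026). In nanozyme vs normal lungs Sftpa1 was -0.023 with scaling without the 100 most abundant genes, -0.078 to 0.198 with 1 library left out and -0.072 with both left out. There Sftpb was -0.47 to -0.00018 with 1 library left out and 0.0043 with both, Sftpd -0.212 to 0.449 and -0.217, and Slc34a2 -0.122 to 0.093 and 0.095, with 0.023 under equal column sums. Among other genes named in model vs normal lungs, Fabp5, Fads1 and Pcyt1a each lost the call in 10 of 20 alternatives, Scd1 in 9, Tfcp2l1 in 8, and Lyz2 and Stat3 in 5. The causes were not tested.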

Other observations

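Markers of cell types outside the alveolar epithelium were counted in the same way. Over all genes tested, 22.7% were called lower and 17.4% higher in model vs normal lungs. In nanozyme vs normal lungs 13.9% were called in either direction, 1220 of the 14540 genes higher and 800 lower. Of 10 ciliated cell markers, 8 were lower in model vs normal lungs and 5 in nanozyme vs normal lungs, with summed levels of 516.1 to 637.3 FPKM in nanozyme lungs, 348.5 to 535.4 FPKM in model lungs and 844.8 to 1315 FPKM in normal lungs. Those counts were 5 and 2 without normal replicate 1, and 5 and 1 without normal replicate 3. The count in nanozyme vs normal lungs was 3 without nanozyme replicate 1 and 8 without model replicate 3. Of all genes, 1987 and 168 were called lower in those 2 comparisons without normal replicate 1, and 1920 and 148 without normal replicate 3. In nanozyme vs normal lungs 435 were called lower without nanozyme replicate 1 and 858 without model replicate 3. Of 10 alveolar macrophage markers, 5 were higher in nanozyme vs normal lungs, and 2 were higher and 1 lower in model vs normal lungs; their sum was 729.3 to 846.2 FPKM in nanozyme lungs, 661.1 to 780.8 FPKM in model lungs and 335.0 to 355.9 FPKM in normal lungs. Without normal replicate 1, 3 macrophage markers were higher in nanozyme vs normal lungs; without model replicate 1, 2 were lower in model vs normal lungs, and without model replicate 2, 3 were higher. Of all genes, in the same order, 627 were called higher, 3200 lower and 2376 higher. Of 8 fibroblast markers, 2 were higher and 3 lower in model vs normal lungs, the collagen genes Col1a1 (1.05 ± 0.22, adjusted p = 0.00665) and Col1a2 (0.82 ± 0.19, adjusted p = 0.0110) being the higher ones, and 0 passed in nanozyme vs normal lungs, or 2 without model replicate 2. Without model replicate 2, 3 fibroblast markers were higher and 2 lower in model vs normal lungs, and without normal replicate 2 or 3, 2 were lower. Of all genes, 2376 were called higher and 2529 lower in model vs normal lungs without model replicate 2. Without normal replicate 2 or 3, 2379 and 1920 were called lower. In nanozyme vs normal lungs without model replicate 2, 2258 were called in either direction. Of 8 endothelial markers, 2 were lower in model vs normal lungs, near the share over all genes, and the sum was 698.2 to 1088 FPKM in nanozyme lungs, 371.4 to 783.2 FPKM in model lungs and 888.6 to 1057 FPKM in normal lungs; that count was 1 without model replicate 2 or any 1 normal replicate, and 4 without model replicate 1 or nanozyme replicate 2. Of all genes, 2529 were called lower in model vs normal lungs without model replicate 2. Without normal replicates 1, 2 and 3 in turn, 1987, 2379 and 1920 were. Without model replicate 1 or nanozyme replicate 2, 3200 and 3836 were called lower. Between nanozyme and model lungs limma called 0 markers of these 4 lists. Without nanozyme replicate 2 it called 1 ciliated, 5 macrophage, 3 endothelial and 3 fibroblast markers higher and 1 fibroblast marker lower. Of all genes, 12.5% were called higher and 9.64% lower in that fit. The ciliated count and that of fibroblast markers called lower were near these shares.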
